A study of Mus musculus with 419 samples.

Results

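Gene expression was compared between the 2 organs of the female reproductive tract that were sampled in Control mice, the ovary and the uterus. The comparison set the 6 Control libraries labelled ovary against the 6 Control libraries labelled uterus, 12 of the 419 libraries of the series. Its libraries were picked by tissue and treatment labels only, but the comparison itself was chosen with earlier results of these data known. All mice were CBA/CaJ, and the 12 libraries came from energy-sufficient (Control) females killed at zeitgeber time 5 h (ZT05) or 17 h (ZT17), with 3 libraries of each organ at each time. The library names carry the same 6 numbers in both organs, so each number was taken as 1 mouse that gave both organs. The same organs of energy-deficient (Deficient) females, again 6 libraries of each at the same times, served as a second comparison that shared no library with the first. The labels give neither the age of the mice nor the stage of the oestrous cycle, and they do not say whether the oviduct or the surrounding fat was trimmed from the ovary. The series as a whole covers 19 tissues and was made to model relative energy deficiency in sport (REDs) in mice.

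The ovary holds oocytes within follicles, whose granulosa and theca cells make oestrogens and androgens under the pituitary hormones FSH and LH, and after ovulation the corpus luteum makes progesterone. The uterus consists of a mucosa of luminal and glandular epithelium on a stroma, wrapped in the smooth muscle of the myometrium, and its epithelium and stroma respond to those ovarian steroids. Between them lies the oviduct, which is lined by ciliated cells and by secretory cells that make oviductal glycoprotein, and which in the mouse is coiled against the ovary.

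Levels are given as CPM (counts scaled to a common library size), computed on library sizes scaled by edgeR's TMM method. The library totals ran from 14134123 to 26939465 counts, and mitochondrially encoded genes took 1.98% to 3.14% of them. A gene was called when its adjusted p (edgeR's quasi-likelihood test, with time as a further term) was under 0.05. Log2 fold changes are ovary-labelled minus uterus, with a standard error worked back from the F statistic of that test. The organ difference touches the makeup of the tissue as well as expression within cells: in bulk RNA, fewer cells of a type and less RNA per cell cannot be told apart.

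The labels were first set against the markers of the organs, and the ovary-labelled libraries did not form 1 group. Cyp11a1 (chr9:58006411-58027023, GRCm38), which makes pregnenolone from cholesterol as the first step of steroid synthesis, stood at 3477 CPM in ZT05 replicate 2 and 5673 CPM in ZT05 replicate 3. It was 369 CPM in ZT17 replicate 1, and 0.244, 0.0904 and 0.107 CPM in ZT05 replicate 1, ZT17 replicate 2 and ZT17 replicate 3, within the uterine range of 0 to 2.75 CPM. Hsd3b1 (chr3:98852194-98859794), the next enzyme towards progesterone, followed the same order with 4394, 2511 and 426 CPM in the first 3 of these libraries and 0, 0 and 0.107 CPM in the last 3. Thus 2 libraries held ovarian steroidogenic RNA at a high level, 1 at a lower level, and 3 at the level of the uterus.

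Oocyte genes, which mark the germ cells of the follicle, were spread in the same way. Of 27 genes of the oocyte list, 26, 22 and 14 reached 1 CPM in ZT05 replicate 2, ZT05 replicate 3 and ZT17 replicate 1, but 2 in each of the other 3 ovary-labelled libraries, against 1 to 4 in the uterus. Summed over the list, oocyte transcripts came to 1214, 284 and 61.8 CPM in the former. In the latter they came to 28.7 to 31.0 CPM, low but above the 7.11 to 16.02 CPM of the uterus. A few members can set these low sums. In ZT05 replicate 1, ZT17 replicate 2 and ZT17 replicate 3, 25 of the 27 genes were under 1 CPM. There 10, 13 and 14 genes had 0 counts, against 11 to 16 in the uterus. All 6 ovary-labelled libraries, in contrast, were rich in RNA of the oviduct. Ovgp1 (chr3:105973711-105987423), which encodes oviductal glycoprotein, was lowest at 1125 CPM in ZT05 replicate 2, had a median of 11100 CPM and reached 16810 CPM, against 3.49 to 65.3 CPM in the uterus. Foxj1 (chr11:116330704-116335399), the regulator of motile cilia, ran from 50.0 to 602 CPM with a median of 498 CPM, against 0.293 to 1.29 CPM in the uterus. The libraries are therefore called ovary-labelled throughout, and where 3 of them are left out these are ZT05 replicate 1, ZT17 replicate 2 and ZT17 replicate 3. Where 4 are left out, ZT17 replicate 1 is left out as well. Only ZT05 replicates 2 and 3 then remain against the 6 uterus libraries of both times, so organ and time are not balanced. Since low steroidogenic and oocyte markers chose the libraries left out, any larger ovarian difference without them follows from the choice and is given as a description.

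**Figure D1:**
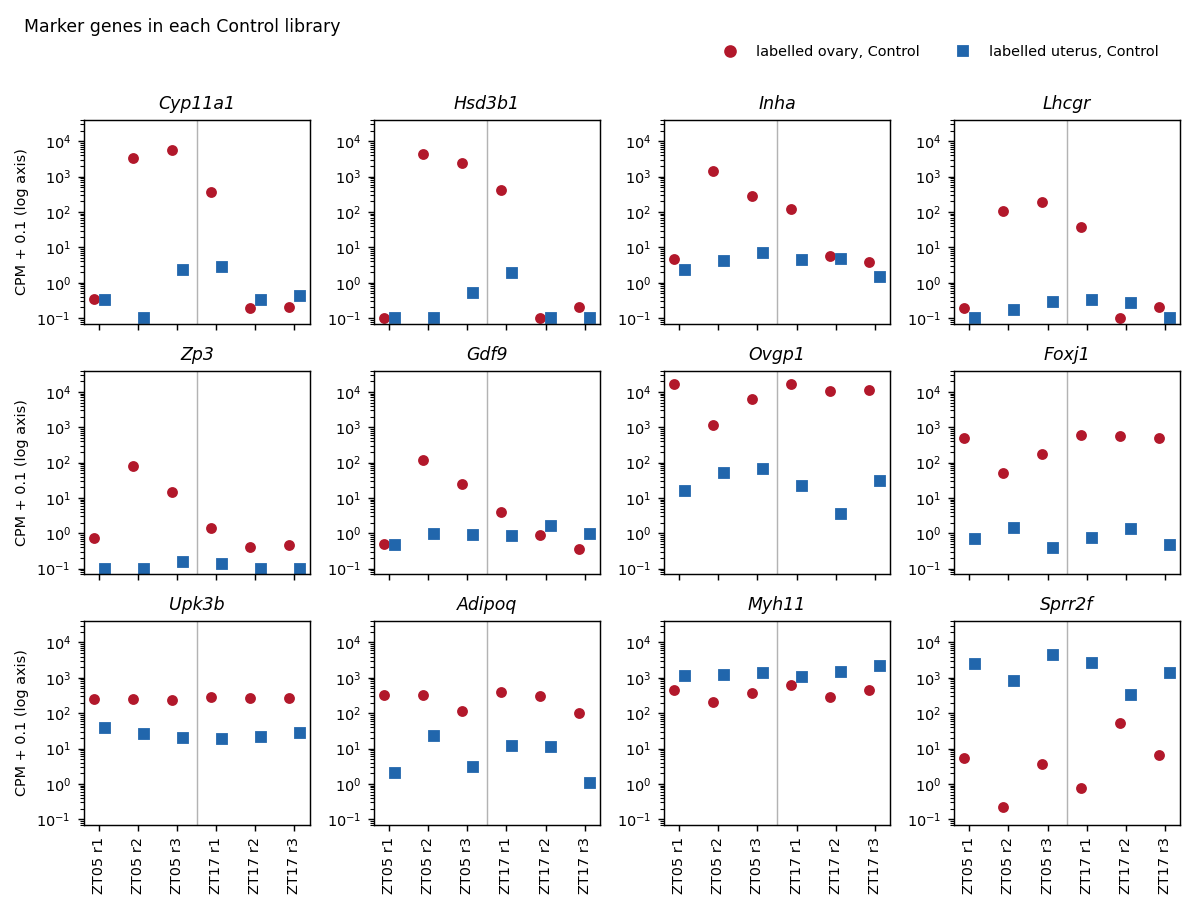
Level (CPM, log axis) of marker genes in each of the 6 ovary-labelled and 6 uterus Control libraries, one point per library, in panels by gene. Steroidogenic and oocyte markers spread over several orders of magnitude among the ovary-labelled libraries, while Ovgp1 and Foxj1 were above every uterus library in all 6.

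**Figure D2:**
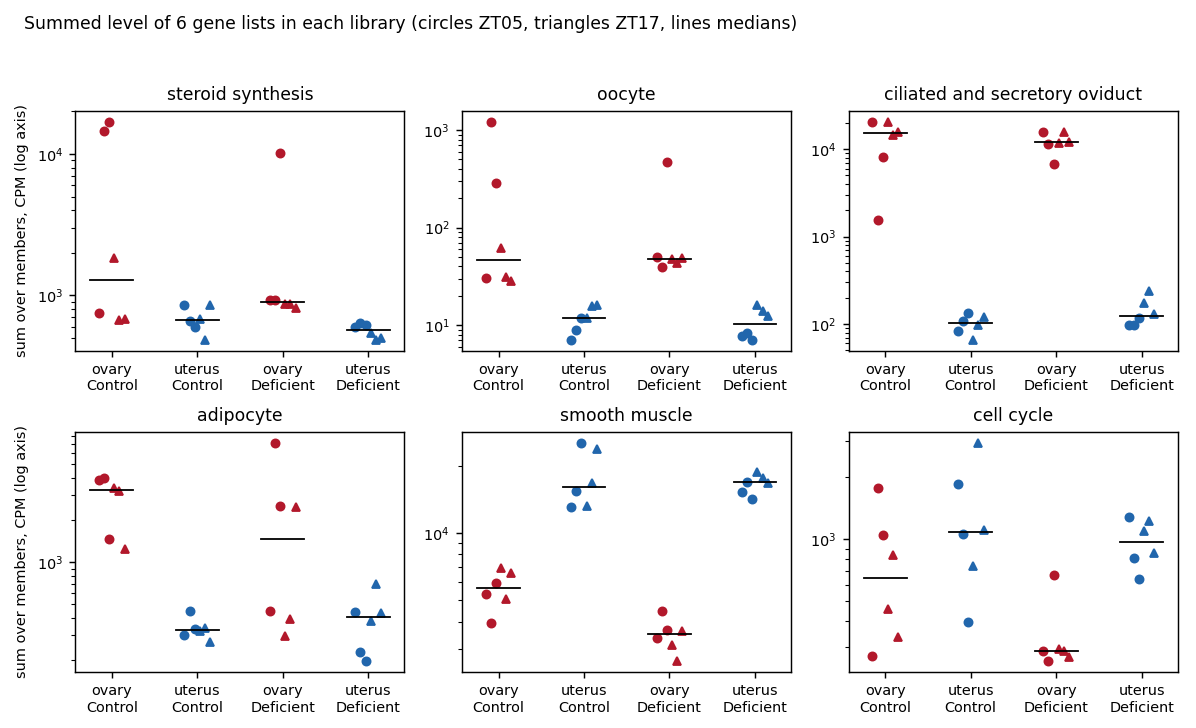
Summed level (CPM, log axis) of the steroid synthesis, oocyte, oviduct, adipocyte, smooth muscle and cell cycle lists, in panels by list. Each point is a Control or Deficient library, with colours for the labelled organ, circles for ZT05 and triangles for ZT17. In Control mice the steroid synthesis sum was 673.8 to 16870 CPM in ovary-labelled libraries and 488.3 to 855.3 CPM in the uterus. The oviduct sums, in contrast, did not overlap.

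Of 18848 genes tested, 4882 (25.9%) were higher in the ovary-labelled libraries and 4012 (21.3%) were higher in the uterus, and the median log2 fold change over all of them was 0.01. At 4-fold or more, 2211 genes (11.7%) were higher in the ovary-labelled libraries and 925 (4.91%) in the uterus. For 2745 genes (14.6%) all 6 ovary-labelled libraries lay above all 6 uterus libraries, and for 2030 (10.8%) the reverse held. With the 3 libraries left out, 3774 (18.3%) and 2436 (11.8%) of 20583 genes were called. The counts of gene lists below are to be read against these shares over all genes, fit by fit. Of the 8894 genes called over all 12 libraries, 5459 were called in the same direction without them, which is 61.4% of the first list and 87.9% of the second, and 0 were called in the opposite direction. Without the 4 libraries 4234 genes were called in all, so counts of list members in that fit are to be read against this smaller number.

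Several of the largest differences in favour of the ovary-labelled libraries were in genes known from motile cilia. Ccdc153 was 52.4 CPM in ZT05 replicate 2 and otherwise 259.6 to 565 CPM in the ovary-labelled libraries, and had 0 counts in all 6 uterus libraries. Against the limit of 3 counts over the group, its mean over the 6 ovary-labelled libraries was at least 14920-fold higher. Such limits and ratios use the mean of the higher group, which a few high libraries can set. Sec14l3 was at least 13750-fold, Fam216b at least 5734-fold, Zfp474 at least 2911-fold and Ak9, an adenylate kinase, at least 2583-fold higher on the same reckoning. The dynein heavy chain gene Dnah3 had 1 count over the 6 uterus libraries and a ratio of 29170 (95% counting interval 5235 to 1152000), and Cfap65, a gene of the sperm and cilium axoneme, also had 1 count and a ratio of 56080 (10070 to 2215000). Counting intervals and limits cover counting error only. The remaining genes among the 12 largest were Sntn, Stoml3, Cdhr3, Dcpp2 and Cfap44, and in all 12 the 2 groups of libraries did not overlap, as the rule for naming them required. Across the 18 tissues of Control females, 11 of these 12 had their highest mean in the ovary-labelled libraries. The exception was Sec14l3, which was highest in the lung, another organ with ciliated epithelium.

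On the uterine side, several of the largest differences were in genes of secreted and surface proteins. Clca1 (chr3:145003817-145032776), a secreted regulator of mucus, was between 534 and 11870 CPM in the uterus with a median of 3508 CPM, and between 0.0409 and 104.8 CPM in the ovary-labelled libraries with a median of 2.03 CPM. The lowest uterus library was above the highest ovary-labelled one, and the log2 fold change was -9.05 ± 1.99 (SE; adjusted p = 0.00307). The serine peptidase gene Tmprss11d reached a median of 64.4 CPM in the uterus and 0.452 CPM at most elsewhere in the comparison, a log2 fold change of -9.35 ± 1.02 (adjusted p = 3.25e-05). Kap was 1.40 to 258 CPM in the uterus and had 2 counts over the ovary-labelled libraries, a ratio of 3363 (931 to 27770). Muc4, a membrane mucin, had medians of 1346 CPM in the uterus and 7.54 CPM in the ovary-labelled libraries (log2 fold change -6.63 ± 1.16, adjusted p = 0.000704). Spink12, a protease inhibitor gene, was 286 to 665 CPM in the uterus. It was near 0 in the ovary-labelled libraries apart from ZT17 replicate 2, where it was 47.7 CPM. Entpd8, Cyp21a1, Prap1, Adgrg7 and the Sprr2 genes Sprr2d, Sprr2f and Sprr2a3 completed the 12. Sprr2 genes are near-identical neighbours whose reads may be split between them, so their separate values are uncertain. Of the 12, 10 had their highest mean among the 18 tissues in the uterus, while Kap was highest in the kidney and Cyp21a1, the adrenal 21-hydroxylase, in the adrenal gland.

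**Figure D3:**
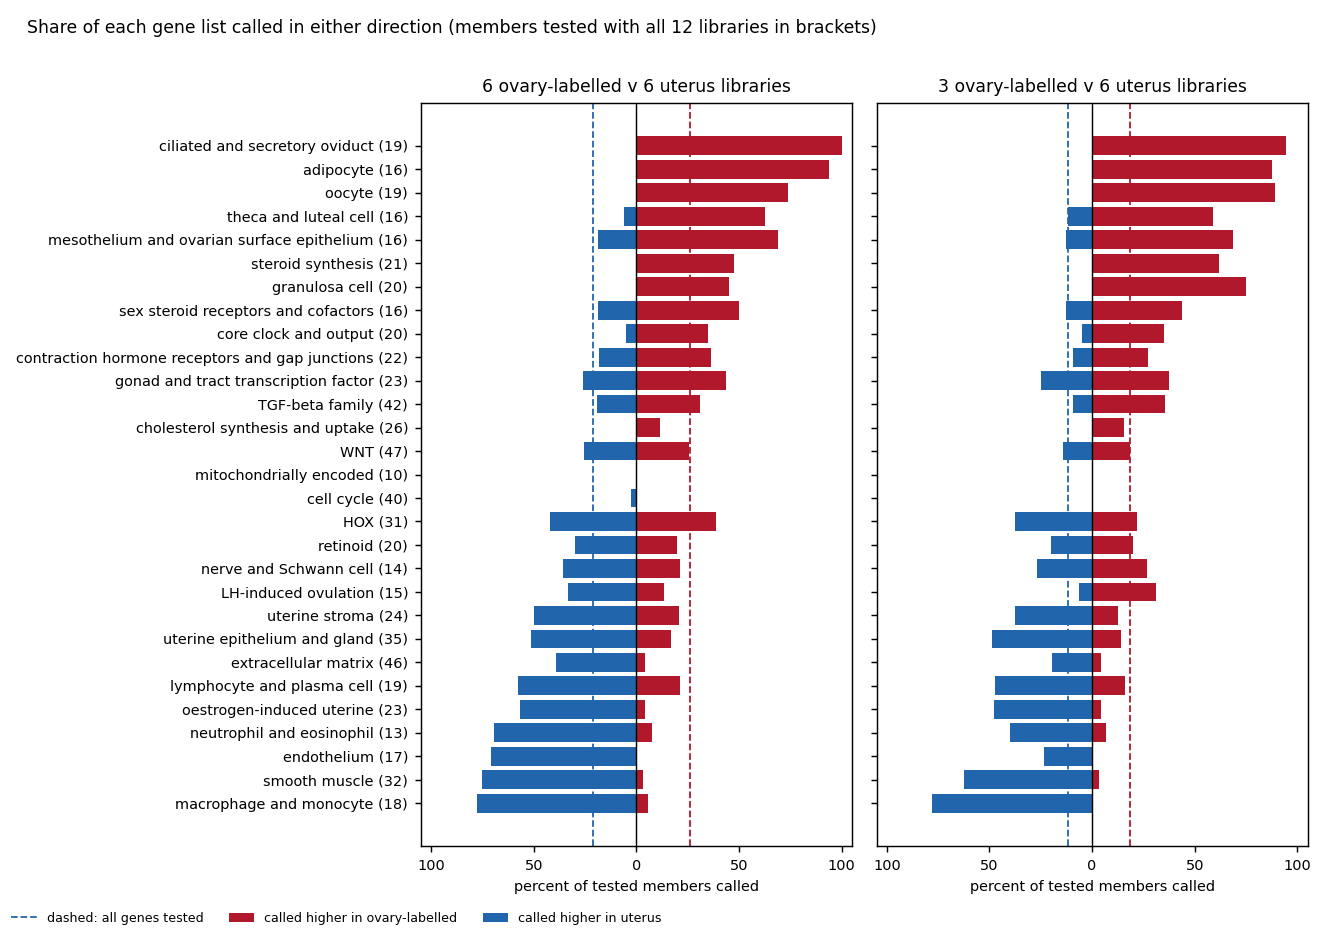
Share of the tested members of each gene list (percent) called higher in the ovary-labelled libraries (to the right) or higher in the uterus (to the left). The left panel uses all libraries, with the share over all 18848 genes as dashed vertical lines. The right panel gives the fit without the 3 libraries, with its own lines. In the left panel, oviduct and adipocyte lists lay furthest to the right (100% and 93.8%). The macrophage and smooth muscle lists lay furthest to the left (77.8% and 75%).

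Oocyte genes were higher in the ovary-labelled libraries wherever they passed the test. Of 27 genes, 19 had enough counts to be tested, 14 were higher in the ovary-labelled libraries and 0 in the uterus, with a median log2 fold change of 4.40. Zp3 (chr5:135980099-135988624), a zona pellucida glycoprotein that binds sperm, was 80.1, 14.3 and 1.36 CPM in the 3 libraries with Cyp11a1 above the uterine range. In the other 3 it was 0.316 to 0.635 CPM, and it had 2 counts over all uterus libraries, a ratio of 902.5 (249.8 to 7452; adjusted p = 0.00067). Zp3 was thus above every uterus library in all 6 ovary-labelled libraries, though low in 3 of them. Zp2, a second zona protein, and Nlrp14, an oocyte factor, had 0 counts in the uterus. Their means over the ovary-labelled libraries were at least 968-fold higher, with adjusted p of 0.0177 and 0.0248. For Nlrp14 the adjusted p was 0.0562 without ovary-labelled ZT17 replicate 1 and 0.0507 without uterus ZT05 replicate 3. Gdf9, a growth factor by which the oocyte steers the granulosa cells, had a median of 2.31 CPM against 0.831 CPM in the uterus and did not pass (log2 fold change 3.39 ± 1.54, adjusted p = 0.0907). Dppa3, a maternal factor of the egg, did not pass either (2.47 ± 1.36, adjusted p = 0.157). Without the 3 libraries, all 27 genes were tested and 24 were called, with a median of 5.89.

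Among the genes of granulosa cells, which surround the oocyte, 9 of 20 were higher in the ovary-labelled libraries and 0 in the uterus (median log2 fold change 3.44). In ZT05 replicates 2 and 3 and ZT17 replicate 1, all 20 reached 1 CPM. In the other ovary-labelled libraries 12 or 13 did, against 12 to 15 in the uterus. The receptor genes came first. Fshr, the receptor through which FSH drives follicle growth, was 58.7 CPM at most and had 0 counts in the uterus. Its mean over the ovary-labelled libraries was at least 489.7-fold higher (adjusted p = 0.0291). Amhr2, the receptor of anti-Müllerian hormone, was above the uterus in all 6 libraries, with 3.39 to 158 CPM against 0.381 to 3.11 CPM (4.80 ± 0.93, adjusted p = 0.00144). Among secreted products, Inha, the alpha subunit of inhibin, ran from 3.75 to 1478 CPM with a median of 65.2 CPM, against 1.37 to 6.69 CPM in the uterus, and the groups overlapped (5.40 ± 1.45, adjusted p = 0.00954). Amh had medians of 2.09 CPM and 0.0824 CPM (5.73 ± 1.95, adjusted p = 0.0305). Cyp19a1, the aromatase that makes oestrogens, had 2 counts in the uterus and a ratio of 428 (118 to 3532; adjusted p = 0.0105). Foxl2, a transcription factor that keeps granulosa identity, was 2.25 to 78.0 CPM in ovary-labelled libraries and 9.38 to 28.1 CPM in the uterus, a log2 fold change of -0.09 ± 0.81 (adjusted p = 0.94). With the mouse as a block in the model, Inha (adjusted p = 0.0558) and Amh (adjusted p = 0.0569) were not called. Without ovary-labelled ZT17 replicate 1, neither Inha (adjusted p = 0.0825) nor Fshr (adjusted p = 0.0576) passed, and Amh lost the call in 5 of the 12 fits that left out 1 library. The direction of Foxl2 turned without the 3 libraries (1.14, adjusted p = 0.16), and the adult uterus is also known to express it.

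Steroid synthesis followed the granulosa pattern. Of 22 genes, 21 were tested, 10 were higher in the ovary-labelled libraries and 0 in the uterus (median 2.67). Nr5a1 (chr2:38692656-38714542), the nuclear receptor that switches on the pathway, was 199.7 CPM at most with a median of 6.48 CPM, and 3 counts over the uterus gave a ratio of 1882 (644 to 9127; adjusted p = 0.00254). Star, which carries cholesterol into the mitochondrion, was 8.40 to 1953 CPM against 6.10 to 25.3 CPM and did not pass over all 12 libraries (3.48 ± 1.59, adjusted p = 0.0919). For Cyp11a1 the log2 fold change was 9.21 ± 2.696 (adjusted p = 0.0149), and for Hsd3b1 it was 10.29 ± 2.91 (adjusted p = 0.0126), with large errors. Without ovary-labelled ZT17 replicate 1 neither was called (adjusted p of 0.222 and 0.203), and with the mouse as a block Cyp11a1 was not (adjusted p = 0.075). Cyp17a1, the enzyme that opens the androgen branch, had 3 counts in the uterus and a ratio of 1882 (644 to 9126; adjusted p = 0.00625). Akr1c18, which inactivates progesterone at the end of luteal life, was 2390 and 4898 CPM in ZT05 replicates 2 and 3, and 0 to 0.589 CPM in the other 4 ovary-labelled libraries, below most of the uterus libraries (0.322 to 3.87 CPM). Its log2 fold change over all 12 was 4.49 ± 4.62 (adjusted p = 0.449). Nr0b1, which represses Nr5a1, had 0 counts in the uterus, was at least 73.4-fold higher by its mean (adjusted p = 0.00245) and did not overlap between the groups. Without the 3 libraries, 13 of the 21 tested genes were called.

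Of 16 tested genes of theca and luteal cells, 10 were higher in the ovary-labelled libraries and 1 in the uterus (median 2.69). Lhcgr, the LH receptor, was 190.5 CPM at most with a median of 19.1 CPM, against 0 to 0.229 CPM in the uterus (8.29 ± 2.03, adjusted p = 0.00575). Nrg1, an epidermal growth factor family ligand, was the 1 member higher in the uterus, where it was 18.5 to 48.6 CPM against 0.762 to 2.98 CPM (-4.32 ± 0.37, adjusted p = 7.68e-06). Insl3, a theca peptide, had too few counts to be tested in the ovary-labelled libraries, 4 in all. Genes that LH switches on around ovulation went both ways. Of 15, 2 (13.3%, against 25.9% of all genes) were higher in the ovary-labelled libraries, Ereg and Runx1. In the uterus 5 were higher (33.3%, against 21.3% of all genes), among them Tnfaip6, Cebpb, Has2 and Pgr. Without the 3 libraries the counts were 5 (31.2%) and 1 (6.25%) of 16, against 18.3% and 11.8% of all genes. Of the fits that left out 1 library, Has2 lost its call in 9 of 12. Runx1 lost its call in 1, without ovary-labelled ZT05 replicate 3 (adjusted p = 0.0576). Of cholesterol genes, 3 of 26 (11.5%, against 25.9% of all genes) were higher in the ovary-labelled libraries and 0 in the uterus. The 3 were Soat1, which stores cholesterol as esters, and the synthesis enzymes Dhcr7 and Lss. Soat1 was 133 to 449 CPM against 26.1 to 93.3 CPM without overlap (1.93 ± 0.43, adjusted p = 0.00337).

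The promoter windows of the steroid genes were searched for the site of NR5A1 and NR5A2 (CAAGGTCA, either strand). Windows run from 250 bases before to 50 bases after a RefSeq transcript start (GRCm38.p6). The site was in 0 of 15 list members with a window, and in 1.76% of 27025 genes, which says only that these letters are not in those windows.

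Genes of the oviduct epithelium, ciliated and secretory, were higher in the ovary-labelled libraries throughout. All 19 tested genes of 20 were higher in the ovary-labelled libraries, against 25.9% of all genes, and all 19 by 4-fold or more (median log2 fold change 8.31). For 17 of them all ovary-labelled libraries lay above the uterus, as they did for 14.6% of all genes. Summed over the list, the level was lowest at 1533 CPM in ZT05 replicate 2, 8071 CPM in ZT05 replicate 3 and 14600 to 20530 CPM in the other 4, against 66.2 to 133.5 CPM in the uterus. The 2 libraries with the highest Cyp11a1 thus had the lowest oviduct sums. Ovgp1 had a log2 fold change of 8.48 ± 0.94 (adjusted p = 3.7e-05) and Foxj1 8.98 ± 0.69 (adjusted p = 4.12e-06). Rsph4a, a radial spoke protein of the cilium, was 16.97 to 265 CPM against 0 to 0.153 CPM (11.08 ± 0.81, adjusted p = 3.22e-06). Dynlrb2, a dynein light chain, was 17.3 to 202 CPM against 0 to 0.293 CPM (11.04 ± 0.84, adjusted p = 4.03e-06). Without the 3 libraries, 18 of the 19 tested were called, with a median of 7.48. Without the 4 libraries, which leaves ZT05 replicates 2 and 3 only, 17 of 18 were called, with a median of 6.57.

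Many ciliary genes carry an X-box, the site of the RFX transcription factors that act with FOXJ1. Its usual consensus was found on either strand in the windows of 3 of 16 list members with a window (18.8%) and in 1.75% of all genes. These 3 windows are shown because each gene was called higher in the ovary-labelled libraries and its window holds the site, which is in capitals.
Dynlrb2 (chr8:116504765-116505064, plus strand): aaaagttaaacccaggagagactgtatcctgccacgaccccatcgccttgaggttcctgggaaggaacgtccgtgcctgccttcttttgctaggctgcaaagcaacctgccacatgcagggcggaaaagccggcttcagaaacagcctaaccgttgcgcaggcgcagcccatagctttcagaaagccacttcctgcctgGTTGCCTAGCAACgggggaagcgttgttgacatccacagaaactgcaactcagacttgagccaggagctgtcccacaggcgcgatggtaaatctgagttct
Dnaic1 (chr4:41569544-41569843, plus strand): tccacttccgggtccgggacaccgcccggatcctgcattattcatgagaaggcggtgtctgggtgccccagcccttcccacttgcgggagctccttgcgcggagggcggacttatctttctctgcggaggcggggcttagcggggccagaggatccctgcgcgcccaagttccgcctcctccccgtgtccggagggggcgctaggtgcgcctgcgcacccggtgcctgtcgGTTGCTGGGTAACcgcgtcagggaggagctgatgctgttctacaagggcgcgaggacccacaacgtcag
Ccno (chr13:112987552-112987851, plus strand): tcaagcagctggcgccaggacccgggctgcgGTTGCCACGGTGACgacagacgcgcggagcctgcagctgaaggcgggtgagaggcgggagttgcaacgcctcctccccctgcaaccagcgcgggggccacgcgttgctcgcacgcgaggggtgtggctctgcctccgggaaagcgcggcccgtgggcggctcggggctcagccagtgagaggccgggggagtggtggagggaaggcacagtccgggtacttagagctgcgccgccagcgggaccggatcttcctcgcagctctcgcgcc
The site begins 51 bases before the transcript start of Dynlrb2, 19 before that of Dnaic1, which encodes a dynein intermediate chain, and 219 before that of Ccno, which drives the multiplication of basal bodies. A match is a description of the sequence and not evidence of binding.

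Genes of the uterine epithelium and glands were mostly higher in the uterus, with 18 of 35 (51.4%) called there, 13 of them by 4-fold or more. In the ovary-labelled libraries 6 (17.1%) were called higher, and the list median was -1.20. The shares over all genes were 21.3% and 25.9%. Lcn2, an iron-binding antimicrobial protein that oestrogen induces, was 978 to 8161 CPM in the uterus and 11.1 to 235 CPM in the ovary-labelled libraries (-5.03 ± 0.73, adjusted p = 0.000208). Ltf, lactoferrin, a classic oestrogen target of the mouse uterus, was 2266 to 13840 CPM against 83.9 to 1439 CPM (-2.89 ± 0.62, adjusted p = 0.00272). Both kept the groups apart, though Ltf was abundant in every ovary-labelled library but ZT05 replicate 2. C3, complement component 3, overlapped, with 1462 to 17050 CPM against 979.5 to 5150 CPM (-1.38 ± 0.52, adjusted p = 0.0471). The call of C3 was lost without the 3 libraries (adjusted p = 0.0713), with the mouse as a block (adjusted p = 0.057) and in 10 of the 12 fits that left out 1 library. Sprr2f (chr3:92365187-92366442), a cornified envelope gene, had medians of 1920 CPM and 4.45 CPM (-7.95 ± 1.45, adjusted p = 0.000933).

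Several genes of this list went the other way. Spdef, a transcription factor of secretory cells, was 2.45 to 59.6 CPM in the ovary-labelled libraries and 0.457 CPM at most in the uterus (7.60 ± 0.74, adjusted p = 1.57e-05). Prss29, a gland serine protease, was 0.695 to 34.8 CPM against 0.1895 CPM at most (8.15 ± 1.11, adjusted p = 0.00014). Calb1, a calcium-binding protein, had medians of 281 CPM and 4.68 CPM (5.18 ± 0.73, adjusted p = 0.000179). Foxa2, which marks uterine glands, was 2.003 CPM in ZT05 replicate 2 and reached 32.3 CPM in the other ovary-labelled libraries, against 2.82 to 4.89 CPM in the uterus (2.49 ± 0.50, adjusted p = 0.00181). All 4 were lowest, among the ovary-labelled libraries, in ZT05 replicate 2, the library lowest in Ovgp1.

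The list of genes that oestrogen induces in the uterus overlaps the epithelial list, and 13 of its 23 tested genes were higher in the uterus and 1, Greb1, in the ovary-labelled libraries (median -1.56). Gjb2, the gap junction protein connexin 26, was 84.6 to 227 CPM in the uterus and at most 43.2 CPM in the ovary-labelled libraries, in ZT17 replicate 2 (-5.11 ± 1.11, adjusted p = 0.00284). Greb1, a cofactor of the oestrogen receptor, was 206 to 681 CPM against 52.7 to 223 CPM (1.64 ± 0.44, adjusted p = 0.00934). Of 40 cell cycle genes, 1, the replication clamp Pcna, was called higher in the uterus (-0.71 ± 0.27, adjusted p = 0.0486) and 0 in the ovary-labelled libraries. That call was lost with the mouse as a block (adjusted p = 0.0625), without the 3 libraries (adjusted p = 0.3) and in 9 of the 12 fits that left out 1 library. All 40 had a negative log2 fold change over the 12 libraries, yet the sums of the list overlapped, with 271 to 1770 CPM in ovary-labelled libraries and 396 to 2930 CPM in the uterus. The direction turned with the libraries used: 10 of 40 were positive without the 3 libraries (median -0.215, from -0.79). Without the 4 libraries, which leaves ZT05 replicates 2 and 3 only, 33 of 40 were positive (median 0.55), and 0 were called in either fit.

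Smooth muscle genes were higher in the uterus almost throughout. Of 32, 24 (75%, against 21.3% of all genes) were called there, 10 of them by 4-fold or more, and 1 in the ovary-labelled libraries, with a median of -1.51. For 21 genes the 6 uterus libraries lay above the 6 ovary-labelled ones, as they did for 10.8% of all genes. Myh11 (chr16:14194535-14291372), the smooth muscle myosin heavy chain, was 1029 to 2121 CPM in the uterus with a median of 1312 CPM, and 204 to 608 CPM in the ovary-labelled libraries with a median of 416 CPM (-1.83 ± 0.25, adjusted p = 0.000161). Acta2, smooth muscle actin, was 1589 to 3388 CPM against 465 to 948 CPM (-1.74 ± 0.24, adjusted p = 0.000161). Both genes of the contractile apparatus were thus lower in the ovary-labelled libraries but far from 0. Pdlim7, a protein of actin filaments, was 238 to 357 CPM against 43.2 to 67.6 CPM and had the smallest p of those named in the list (-2.42 ± 0.14, adjusted p = 1.67e-06). Jph2, which ties the sarcoplasmic reticulum to the membrane (-2.58 ± 0.20), the intermediate filament gene Des (-2.46 ± 0.46) and Pcp4, a calmodulin regulator (-3.93 ± 0.77), also passed without overlap. Synm, another intermediate filament protein, was the 1 member higher in the ovary-labelled libraries, 87.3 to 210.3 CPM against 35.6 to 83.9 CPM (1.56 ± 0.24, adjusted p = 0.000264). Without the 3 libraries, 20 of 32 were called higher in the uterus and 1 in the ovary-labelled libraries.

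Smooth muscle genes are known to be switched on by serum response factor through the CArG box. It was found on either strand in the windows of 2 of 25 list members with a window (8%) and in 1.81% of all genes. Both windows are shown with the box in capitals.
Myl9 (chr2:156775214-156775513, plus strand): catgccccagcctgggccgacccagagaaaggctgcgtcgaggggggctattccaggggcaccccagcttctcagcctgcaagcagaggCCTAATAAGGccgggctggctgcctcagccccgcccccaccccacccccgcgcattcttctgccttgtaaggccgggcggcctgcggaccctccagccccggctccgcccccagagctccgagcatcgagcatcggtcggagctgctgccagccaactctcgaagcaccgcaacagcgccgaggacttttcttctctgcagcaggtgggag
Ldb3 (chr14:34588632-34588931, minus strand): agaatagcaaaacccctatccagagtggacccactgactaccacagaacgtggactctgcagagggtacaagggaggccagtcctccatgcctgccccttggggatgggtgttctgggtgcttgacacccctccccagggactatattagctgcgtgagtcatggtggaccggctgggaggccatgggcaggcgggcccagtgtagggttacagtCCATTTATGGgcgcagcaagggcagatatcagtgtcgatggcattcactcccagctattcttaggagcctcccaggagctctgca
Myl9 encodes the regulatory myosin light chain and Ldb3 a protein of the Z-disc, and both were called higher in the uterus. The box begins 161 bases before the start of Myl9 and 35 before that of Ldb3.

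The receptors and gap junctions through which hormones time contraction went both ways, with 4 of 22 (18.2%) higher in the uterus and 8 (36.4%) in the ovary-labelled libraries (median 0.22). The shares over all genes were 21.3% and 25.9%. Rxfp1 (chr3:79641611-79737880), the relaxin receptor, was 384 to 966 CPM in the uterus and 2.08 to 61.0 CPM in the ovary-labelled libraries (-4.38 ± 0.72, adjusted p = 0.000466). It had its highest mean among the 18 tissues in the uterus, followed by the pituitary. Oxtr, the oxytocin receptor, spread from 45.3 to 495 CPM in the uterus and was 61.8 to 86.9 CPM in the ovary-labelled libraries, so that the groups overlapped (-1.48 ± 0.48, adjusted p = 0.0237). Oxtr was not called without the 3 libraries (adjusted p = 0.176), and it lost the call in 4 of the 12 fits that left out 1 library. Gjc1, connexin 45, was higher in the uterus (-1.68 ± 0.30, adjusted p = 0.000736), while Gja1, connexin 43, was higher in the ovary-labelled libraries (1.42 ± 0.54, adjusted p = 0.0483), at 2370 CPM in its highest library. Ptgfr, the receptor for the prostaglandin that ends luteal life, was 619 CPM at most with a median of 16.3 CPM, against 2.07 to 8.92 CPM (3.63 ± 1.26, adjusted p = 0.0332). The adrenergic and muscarinic receptor genes Adra1a, Adra1b and Chrm3 were higher in the ovary-labelled libraries at low levels, 5.22 CPM at most. With the mouse as a block, Oxtr (adjusted p = 0.0909), Gja1 (adjusted p = 0.0911) and Ptgfr (adjusted p = 0.0525) were not called, and leaving out 1 library ended the call of Gja1 in 7 and of Ptgfr in 3 of 12 fits.

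In the stroma list, 12 of 24 genes (50%) were higher in the uterus and 5 (20.8%) in the ovary-labelled libraries (median -0.76). The shares over all genes were 21.3% and 25.9%. Dio2 (chr12:90724552-90738438), the deiodinase that activates thyroid hormone, was 188 to 509 CPM in the uterus and 4.93 to 35.7 CPM in the ovary-labelled libraries (-4.50 ± 0.49, adjusted p = 3.33e-05), and its mean was highest in the uterus among the 18 tissues. Col6a4, a collagen VI chain, was 272 to 1758 CPM against 23.99 to 226.5 CPM (-3.84 ± 0.67, adjusted p = 0.000676). Hand2, through which progesterone quiets the epithelium, was 6.73 to 20.6 CPM against 1.39 to 6.43 CPM (-1.48 ± 0.35, adjusted p = 0.00446). Against them, Ptch1, the hedgehog receptor, was 80.2 to 170.6 CPM in the ovary-labelled libraries and 30.6 to 44.9 CPM in the uterus (1.58 ± 0.18, adjusted p = 3.65e-05). Sfrp1, a secreted WNT inhibitor (1.99 ± 0.26), and the growth factor Fgf1 (2.60 ± 0.55) were also higher in the ovary-labelled libraries.

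Matrix genes leaned to the uterus, with 18 of 46 (39.1%) called there and 2 (4.35%) in the ovary-labelled libraries (median -0.66). The shares over all genes were 21.3% and 25.9%. Col6a3 had medians of 765 CPM and 163 CPM (-2.40 ± 0.49, adjusted p = 0.00194), and Col1a1 1191 CPM and 281 CPM (-2.10 ± 0.43, adjusted p = 0.00202), both without overlap. Lox, which cross-links collagen, and Postn, periostin, were also called. Fmod, a small proteoglycan that binds collagen, stood against the list at 12.8 to 28.2 CPM in the ovary-labelled libraries and 1.58 to 5.80 CPM in the uterus (2.76 ± 0.30, adjusted p = 2.92e-05). Without the 3 libraries 9 genes (19.6%, against 11.8% of all genes) were called higher in the uterus, and the list median was -0.57. Without the 4 libraries the list median was -0.01, and 3 matrix genes were called in each direction. Over all genes that fit called 4234, against 8894 with all 12 libraries.

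HOX genes, whose order along each chromosome cluster matches their use along the body axis, were called in both directions. Of 39 genes 31 were tested, 12 were higher in the ovary-labelled libraries and 13 in the uterus (median -0.14). Of paralogue groups 1 to 8, 10 of 21 tested genes were higher in the ovary-labelled libraries and 5 in the uterus. Of groups 9 to 13, 2 of 10 were higher in the ovary-labelled libraries and 8 in the uterus. Hoxa10 (chr6:52231197-52240854), needed for implantation, was 49.7 to 147 CPM in the uterus with a median of 100.1 CPM, and 1.06 to 9.26 CPM in the ovary-labelled libraries (-4.36 ± 0.43, adjusted p = 1.77e-05). Hoxa11 was 36.9 to 69.8 CPM against 0.0409 to 3.70 CPM (-5.20 ± 0.65, adjusted p = 8.4e-05), and Hoxa9, Hoxd10 and Hoxc11 were likewise higher in the uterus without overlap.

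The clusters differed. In cluster A the switch fell between Hoxa7, higher in the ovary-labelled libraries (1.61 ± 0.39), and Hoxa9, higher in the uterus (-3.21 ± 0.47). In cluster B all 6 called genes of 8 tested were higher in the uterus, Hoxb3 included. In cluster C 6 of 7 were higher in the ovary-labelled libraries, up to Hoxc10, and 1, Hoxc11, in the uterus. Hoxc8 (chr15:102990607-102994111) was 20.7 to 32.0 CPM in the ovary-labelled libraries and 0.535 to 2.09 CPM in the uterus (4.66 ± 0.35, adjusted p = 4.03e-06), and the adrenal gland alone had a higher mean among the 18 tissues. Hoxc9 (3.67 ± 0.52) and Hoxc5 (3.46 ± 0.51) were also free of overlap. All 6 ovary-labelled libraries, with high and with low Cyp11a1, were thus above the uterus for Hoxc8 and below it for Hoxa10. Levels within the ovary-labelled libraries were not uniform. The sum over the HOX list was 149.2 and 234.3 CPM in ZT05 replicates 2 and 3, which had the highest Cyp11a1. In the other ovary-labelled libraries it was 295.5 to 364.9 CPM. Without the 3 libraries, 7 and 12 of 32 tested HOX genes were called.

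**Figure D4:**
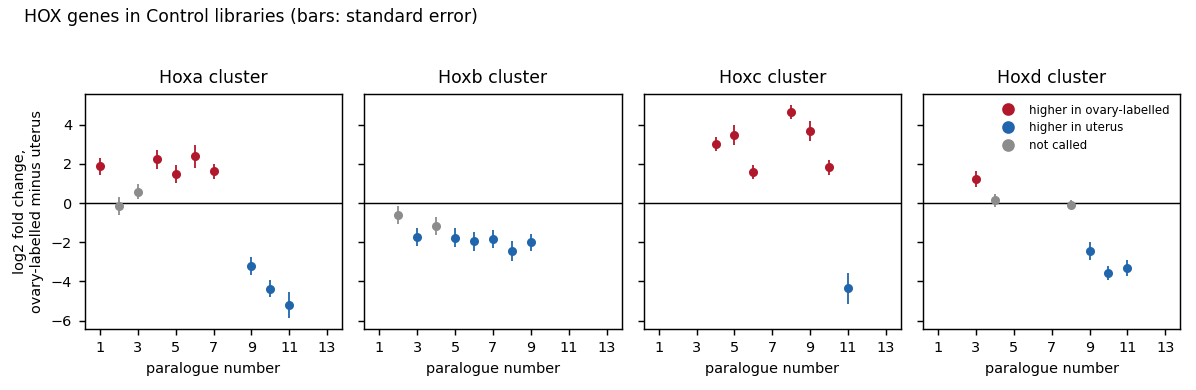
Log2 fold change (ovary-labelled minus uterus, with standard error bars) of the tested HOX genes in order of paralogue group, in panels by cluster A to D. Groups 9 to 13 lay below 0 for 8 of 10 tested genes that passed the test, while 6 of 7 tested genes of cluster C lay above 0.

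Transcription factors of the gonad and tract went both ways, with 10 of 23 (43.5%) higher in the ovary-labelled libraries and 6 (26.1%) in the uterus (median -0.09). The shares over all genes were 25.9% and 21.3%. Lhx9, a factor of the early gonad, had 0 counts in the uterus and 0.361 to 43.4 CPM in the ovary-labelled libraries, where its mean was at least 434-fold higher (adjusted p = 0.00674). Gata4, which acts in granulosa and theca cells, was 4.25 to 172 CPM against 0 to 0.711 CPM (6.63 ± 1.15, adjusted p = 0.000677). Msx2, a homeobox gene of uterine epithelium, was 36.1 to 88.0 CPM in the uterus and 1.02 to 24.8 CPM in the ovary-labelled libraries (-3.44 ± 0.70, adjusted p = 0.00195), and Pax2, a factor of the Müllerian duct, had medians of 43.0 CPM and 19.2 CPM (-1.64 ± 0.49, adjusted p = 0.0155).

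Of the steroid receptors, which carry the ovarian hormones' signal, some differed between the organs and Esr1 did not pass. Esr1, the main oestrogen receptor of the uterus, was 89.2 to 644 CPM in the ovary-labelled libraries and 344 to 643 CPM in the uterus, with medians of 522 and 461 CPM (-0.14 ± 0.37, adjusted p = 0.777). Esr2, the receptor of granulosa cells, was 0.226 to 166 CPM against 0.153 to 0.646 CPM (5.14 ± 1.43, adjusted p = 0.0114) and was highest in the libraries with high Cyp11a1. Pgr, the progesterone receptor, was 65.4 to 406 CPM in the uterus and 9.36 to 118 CPM in the ovary-labelled libraries (-1.57 ± 0.56, adjusted p = 0.0366). In the whole list, 8 of 16 (50%) were higher in the ovary-labelled libraries and 3 (18.8%) in the uterus (median 0.44), against 25.9% and 21.3% of all genes. Esr2 lost its call with the mouse as a block (adjusted p = 0.124) and without ovary-labelled ZT17 replicate 1 (adjusted p = 0.0818), and Pgr lost its call in 8 of the 12 fits that left out 1 library.

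WNT genes were called 12 and 12 of 47 tested, close to the share over all genes in each direction. Wnt2b (chr3:104945272-104961921) was 32.1 to 76.5 CPM in the ovary-labelled libraries and 0.528 to 3.22 CPM in the uterus (4.91 ± 0.36, adjusted p = 3.22e-06), and had its highest mean of the 18 tissues in the ovary-labelled libraries. Wnt11 was higher there as well, with 3.68 to 69.8 CPM against 0.142 to 1.68 CPM (4.75 ± 0.72, adjusted p = 0.000275). On the uterine side stood Wnt7a, an epithelial ligand needed to form the uterus, with medians of 55.0 and 5.48 CPM (-3.31 ± 1.02, adjusted p = 0.0187). Without ovary-labelled ZT05 replicate 1 the adjusted p of Wnt7a was 0.0504. The WNT receptor gene Ror2 was 44.2 to 124 CPM against 5.08 to 18.7 CPM (-3.10 ± 0.35, adjusted p = 4.54e-05), and Fzd10 also was higher in the uterus (-3.10 ± 0.69).

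In the TGF-beta family 13 of 42 genes (31%) were higher in the ovary-labelled libraries and 8 (19%) in the uterus (median 0.27), near the shares of 25.9% and 21.3% over all genes. Beyond Inha, Amh and Amhr2, the BMP antagonist Grem1 was higher in the ovary-labelled libraries without overlap, 0.751 to 15.9 CPM against 0 to 0.686 CPM (4.08 ± 0.98, adjusted p = 0.00515). Gdf10 (-1.79 ± 0.44), Bmp5 (-1.41 ± 0.47) and the antagonist Nog (-1.24 ± 0.42) were higher in the uterus. Bmp5 and Nog lost the call without the 3 libraries (adjusted p of 0.265 and 0.172), with the mouse as a block (adjusted p of 0.0513 and 0.0734) and in 5 and 7 of the 12 fits that left out 1 library.

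Retinoid genes, which handle vitamin A and its acid, were called higher in the ovary-labelled libraries for 4 of 20 (20%) and in the uterus for 6 (30%), near the shares of 25.9% and 21.3% over all genes (median -0.16). Cyp26a1 (chr19:37697798-37701536), which breaks down retinoic acid, was 5.603 to 69.6 CPM in the ovary-labelled libraries and 0.153 to 1.66 CPM in the uterus (5.25 ± 0.81, adjusted p = 0.000307). Cyp26b1, its paralogue, was the reverse, with medians of 1.48 and 7.63 CPM (-2.07 ± 0.45, adjusted p = 0.00272). Lrat, which stores retinol as esters, and Aldh1a1, which makes retinoic acid, were higher in the ovary-labelled libraries, and Aldh1a2 and Rdh10, of the same synthesis route, in the uterus. The call of Aldh1a2 (adjusted p = 0.0396) was lost with the mouse as a block (adjusted p = 0.145), without the 3 libraries (adjusted p = 0.344) and in 7 of the 12 fits that left out 1 library (adjusted p up to 0.115).

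Markers of other tissues that could be dissected with the organs were counted in the same way. Of 16 adipocyte genes 15 were higher in the ovary-labelled libraries and 0 in the uterus (median 4.102), and the summed level was 1252 to 3967 CPM against 269.7 to 451 CPM. Adipoq (chr16:23146536-23158028), the fat hormone adiponectin, was 100 to 398 CPM in the ovary-labelled libraries, with a median of 316 CPM, all of them above the uterus libraries at 0.948 to 22.4 CPM (4.96 ± 0.78, adjusted p = 0.000347). Lep, leptin, was 7.77 to 51.0 CPM against 0.969 CPM at most (5.78 ± 0.85, adjusted p = 0.000223). Of 16 genes of mesothelium and ovarian surface epithelium, 11 were higher in the ovary-labelled libraries and 3, the keratins Krt7 and Krt8 and Aldh1a2, in the uterus (median 2.97). Krt8 lost its call in 6 of the 12 fits that left out 1 library (adjusted p up to 0.0776). Upk3b, a uroplakin of mesothelium, was 233 to 280.2 CPM in all 6 ovary-labelled libraries and 18.8 to 37.1 CPM in the uterus (3.38 ± 0.17, adjusted p = 7.31e-07). Muc16 (chr9:18495455-18674530), a large mucin of that surface, was 96.9 to 142 CPM against 2.21 to 8.87 CPM (4.77 ± 0.29, adjusted p = 1.73e-06). Fat, mesothelium and oviduct genes were thus present in all 6 ovary-labelled libraries, including the 3 with Cyp11a1 in the uterine range, and their part in the differences of other genes was not tested.

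Immune and vessel genes were mostly higher in the uterus. Of 18 macrophage and monocyte genes 14 (77.8%, against 21.3% of all genes) were higher there and 1, Cd163, in the ovary-labelled libraries (median -1.56). Cd68, a lysosomal protein of macrophages, was 49.6 to 138 CPM against 10.96 to 20.8 CPM (-2.40 ± 0.22, adjusted p = 9.29e-06). Of 13 tested neutrophil and eosinophil genes, 9 were higher in the uterus and 1 in the ovary-labelled libraries (median -3.24). The sums of this list overlapped, with 50.1 to 516 CPM (median 355.5) in ovary-labelled libraries and 88.0 to 571 CPM (median 336) in the uterus. Without the 3 libraries 6 of 15 (40%, against 11.8% of all genes) were higher in the uterus. In Deficient mice 2 of 7 tested were called in each direction (median -0.016). Retnlg, a neutrophil protein, was 10.8 to 56.7 CPM in the uterus and had 5 counts in all over the ovary-labelled libraries (-9.47 ± 0.61, adjusted p = 1.91e-06). Ccr3, the eotaxin receptor of eosinophils, was 3.60 to 13.6 CPM against 0.244 CPM at most (-6.17 ± 0.60, adjusted p = 1.61e-05). Mmp8, the neutrophil collagenase, went the other way, with 1.35 to 20.6 CPM in the ovary-labelled libraries and 0.724 CPM at most in the uterus (5.26 ± 0.65, adjusted p = 7.67e-05).

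Lymphocyte and plasma cell genes went both ways: 11 of 19 were higher in the uterus, among them Gzmb of cytotoxic cells, Trac of T cells, Ncr1 of natural killer cells and Igha of plasma cells. The 4 that were higher in the ovary-labelled libraries included Ms4a1 (3.17 ± 0.62) and Mzb1 (3.13 ± 0.60), genes of the B lineage, at levels of 3.52 CPM or less. Of 17 endothelial genes, 12 were higher in the uterus and 0 in the ovary-labelled libraries (median -1.13). Without the 3 libraries 4 were called higher in the uterus (23.5%, against 11.8% of all genes), with a median of -0.69. Flt1, a VEGF receptor, was 30.9 to 64.7 CPM against 4.56 to 18.3 CPM (-2.06 ± 0.34, adjusted p = 0.000456). Among nerve genes, 3 of 14 (21.4%) were higher in the ovary-labelled libraries and 5 (35.7%) in the uterus, against 25.9% and 21.3% of all genes. Prph, the peripheral neurofilament protein peripherin, was 18.03 to 68.2 CPM against 0.452 to 2.15 CPM (5.61 ± 0.37, adjusted p = 1.93e-06), while the Schwann cell genes Sox10, Cdh19 and Ngfr were higher in the uterus.

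Clock and time of day formed the last group. Of 20 clock genes, 7 (35%) were higher in the ovary-labelled libraries and 1 (5%) in the uterus (median 0.61), against 25.9% and 21.3% of all genes. Bhlhe40, a repressor within the clock that also answers to oxygen and steroids, was 138 to 495 CPM in the uterus and 59.2 to 90.9 CPM in the ovary-labelled libraries (-2.18 ± 0.24, adjusted p = 3.02e-05). Cry2, a core repressor (1.68 ± 0.22), Usp2, a deubiquitinase under clock control (2.33 ± 0.37), and Tef (1.27 ± 0.32) were higher in the ovary-labelled libraries. Between ZT17 and ZT05, 0 genes passed edgeR's test in the ovary-labelled libraries, in the uterus or for the difference between them. At an unadjusted p under 0.05 the counts were 2187, 904 and 1370, and DESeq2 called 473, 39 and 14. With ZT05 replicate 1 left out, edgeR called 1937 genes in the ovary-labelled libraries and 353 for the difference, so 1 library decided those 2 counts. Leaving out ovary-labelled or uterus ZT17 replicate 1 gave 1 gene each in the ovary-labelled libraries. The libraries with Cyp11a1 in the uterine range were 1 of 3 at ZT05 and 2 of 3 at ZT17, and their part in these counts was not tested.

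The same organs were then compared in Deficient mice. Of 18521 genes tested, 6132 (33.1%) were higher in the ovary-labelled libraries and 5667 (30.6%) in the uterus. Of the genes called in Control mice, 5928 were called in the same direction in Deficient mice, which is 66.7% of the Control list and 50.2% of the Deficient list, and 311 in the opposite direction. The labels were again at odds with the markers, as Cyp11a1 was high in 1 of the 6 Deficient ovary-labelled libraries, ZT05 replicate 3, at 2524 CPM. Ovgp1 was 4186 to 10870 CPM in all 6. Of the lists above, 5 of 27 oocyte genes had counts enough for the test and 3 were called, while all 19 tested oviduct genes were higher in the ovary-labelled libraries.

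**Figure D5:**
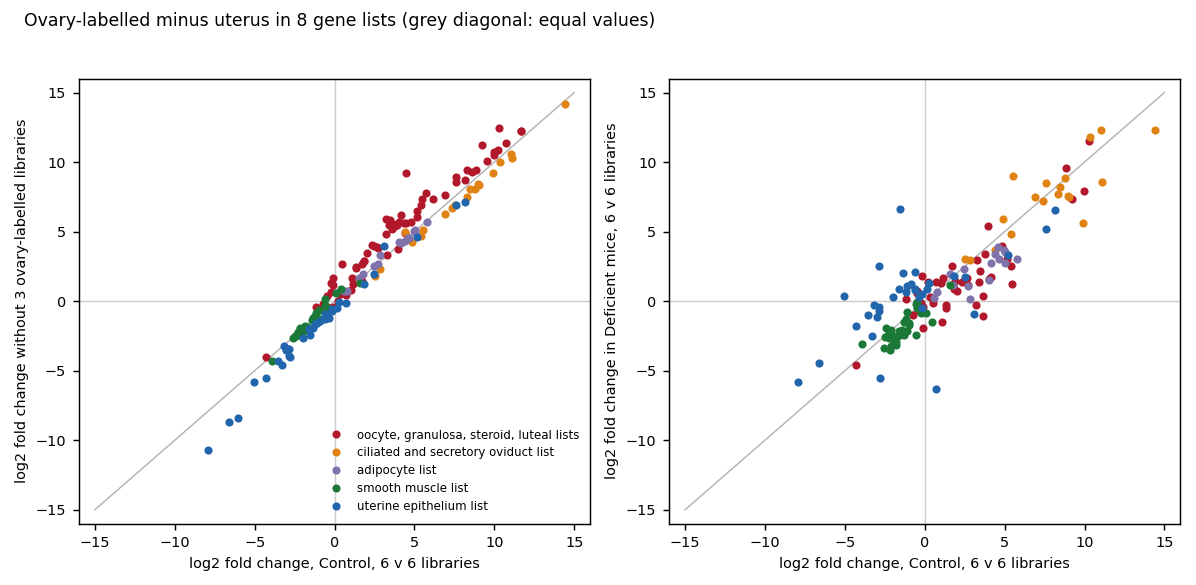
Log2 fold change (ovary-labelled minus uterus) of members of the oocyte, granulosa, steroid synthesis, theca and luteal, oviduct, adipocyte, smooth muscle and uterine epithelium lists. Control mice are on the horizontal axis, and colours give groups of lists. The vertical axis is the Control fit without the 3 libraries in the left panel and Deficient mice in the right panel. Ltf and C3 were below 0 in Control and above 0 in Deficient mice.

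Smooth muscle (28 of 32 higher in the uterus, 1 in the ovary-labelled libraries), matrix (42 of 46 and 1), cell cycle (36 of 40 and 0) and endothelium (16 of 17 and 0) all leaned to the uterus in Deficient mice. Over all genes, 30.6% were higher in the uterus there and 33.1% in the ovary-labelled libraries. The difference between the organ differences, Deficient minus Control, passed for 2354 of 19772 genes (11.9%) above 0 and 2104 (10.6%) below 0. Among the named genes of the uterine epithelium, the oestrogen targets Ltf, Lcn2 and C3 changed. Ltf had a median of 6456 CPM in the Control uterus and 141 CPM in the Deficient uterus, and the organ difference turned from -2.89 to 2.52, a change of 5.45 ± 0.96 (adjusted p = 0.00107). Lcn2 had uterine medians of 4318 CPM and 42.2 CPM, and the change was 5.47 ± 0.95 (adjusted p = 0.001). C3 had uterine medians of 8282 CPM and 567 CPM, and the change was 3.47 ± 0.62 (adjusted p = 0.00116). Clca1, Dio2 and Gjb2 had organ differences of -9.13, -5.21 and -5.90 in Deficient mice, and their changes did not pass (adjusted p of 0.915, 0.367 and 0.723). The oestrogen-induced list, which holds Clca1 and Gjb2, summed to 7834 to 50370 CPM in the Control uterus and 793.9 to 5004 CPM in the Deficient uterus. In Deficient mice 6 of its 22 tested genes (27.3%) were higher in the ovary-labelled libraries and 10 (45.5%) in the uterus.

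Of the whole list of uterine epithelium and glands, 18 of 34 tested genes (52.9%) were higher in the ovary-labelled libraries and 8 (23.5%) in the uterus in Deficient mice (median 0.56). The shares over all genes there were 33.1% and 30.6%. In Control mice the list had 6 and 18 of 35. Krt8 and Krt7, keratins of simple epithelium, changed by 2.19 ± 0.46 (adjusted p = 0.00301) and 2.53 ± 0.43 (adjusted p = 0.000931). Below 0, Ptch1 changed by -1.81 ± 0.26 (adjusted p = 0.000416), and it did not pass between the organs in Deficient mice (adjusted p = 0.246). Myh11 changed by -1.27 ± 0.31 (adjusted p = 0.00827) and Hoxd10 by -1.45 ± 0.48 (adjusted p = 0.0366), both towards a larger uterine excess. Hoxa10 (adjusted p = 0.0659), Upk3b (0.02 ± 0.26, adjusted p = 0.987) and Foxj1 (adjusted p = 0.119) did not pass. Cyp11a1 was 369 CPM or more in 3 of 6 ovary-labelled Control libraries, and in Deficient mice it was 2524 CPM in 1 library and 2.085 CPM or less in the other 5. The oocyte sum, which a few members can set, was above every uterus library of the same treatment in all of them. In Deficient mice it was 39.7 to 471 CPM against 7.14 to 16.15 CPM. The part of this difference between libraries in these changes was not tested.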

How the data were processed

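Libraries were made with the TruSeq Stranded mRNA kit from TRIzol-extracted RNA, per the labels' protocols. The deposited values used here are raw counts. The submitters' processing notes name the aligner STAR 2.7.10a, cutadapt 4.1, FastQC 0.11.9 and DESeq2 1.34.0, and the build GRCm38 (mm10). The counting tool and the annotation release are not given in the sources used here. A second deposited table of normalized values was not used. The table held 55487 genes, of which 248 are named by Ensembl identifier, and 0 count columns were unmatched to a sample.

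The 12 Control libraries were fitted with edgeR 4.0.16 in R 4.3.3: default expression filter (minimum count 10, minimum total 15), TMM scaling, a quasi-likelihood model of tissue and time, and Benjamini-Hochberg adjustment over 18848 genes. Time effects came from 4 groups of tissue and time, and treatment effects from 8 groups of 24 libraries. Alternatives included DESeq2 1.42.0, the mouse as a replicate block, and each library left out in turn. The model code was tested on simulated data. Depth allows 3 counts in a library to stand for 0.114 to 0.229 CPM. Nothing in the labels says that libraries of 1 organ are other than separate mice. Residuals of the 2 organs of a mouse correlated at 0.0311 to 0.354.

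Named genes were the 12 largest called differences per direction without overlap and with at least 50 CPM in the higher group, passing over predicted genes and immunoglobulin segments, 40 panel genes, and per list up to 4 called genes with the median's direction and up to 3 against it. The text names part of them, and some results are not reported here. Hoxa7, Hoxb3, Hoxc10 and the genes of the printed promoters were named after their values were seen. The 29 lists (645 genes, 642 in the table) and the comparison itself were chosen with earlier results of these data known. Positions are from GENCODE M21 (GRCm38), and promoters and their starts from RefSeq (GRCm38.p6). The motif of the cilium genes and the fits without 3 or 4 ovary-labelled libraries were added after the data had been seen.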

Additional observations from a re-analysis of the deposited data

Results flagged for a closer look

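In 27 of 287 pairs of a named gene and a labelled organ, 1 of the 6 Control libraries stood apart from the other 5 by Dixon's ratio, which chance alone does in about 1 of 20. Most of these values were in ovary-labelled ZT05 replicate 2, the library with the highest oocyte sum. There the cilium genes were lower than in the other 5 libraries: Ccdc153 was 52.4 CPM, Cfap65 63.2, Sntn 16.3, Dnah3 29.5, Zfp474 7.44, Stoml3 6.34, Cdhr3 25.6, Cfap44 43.9, Dynlrb2 17.3 and Fam183b 19.7 CPM. Ovgp1 (1120 CPM), Foxa2 (2.003), Ltf (83.9), Lcn2 (11.1), Chrm3 (0.777) and Postn (22.2) were also lowest in it, and Greb1 (681 CPM) was highest. Runx1 at 104 CPM and Rora at 147 CPM were high in ovary-labelled ZT05 replicate 3. Spink12 at 47.7 CPM and Gjb2 at 43.2 CPM, both genes of the uterine side of the comparison, were high in ovary-labelled ZT17 replicate 2.

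In the uterus, C3 (1460 CPM) and Cyp26b1 (3.70 CPM) were low in ZT17 replicate 2, Dio2 (188 CPM) was low and Ptgs2 (199 CPM) high in ZT17 replicate 1, and Tnfaip6 (7.11 CPM) was low and Ncoa3 (108 CPM) high in ZT05 replicate 1.

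The organ difference itself differed between Deficient and Control mice for 5 of the panel genes reported here (edgeR, adjusted p under 0.05). The change, Deficient minus Control on the log2 scale, was 5.47 for Lcn2, 5.45 for Ltf, 3.47 for C3, -1.27 for Myh11 and -1.45 for Hoxd10.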

How the results depend on the processing

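The counts of genes called between the organs moved by over 1.5 times with the stricter filter (1159 and 527 genes at 4-fold or more, from fewer genes tested), with ZT05 libraries only (1815 higher in ovary-labelled libraries, 1274 of them by 4-fold or more, and 1311 higher in the uterus, from fewer samples), without 3 ovary-labelled libraries (2436 higher in the uterus) and without 4 (2480 and 1754). DESeq2 called 14 genes for time by tissue, 473 for time in ovary-labelled libraries and 39 for time in the uterus, against 0 by edgeR. Without a low-count filter the treatment by tissue count above 0 was 1387. Leaving out 1 library gave 4485 to 5051 and 3460 to 4457 genes in Control, 2239 to 2477 and 910 to 1039 at 4-fold or more, 0 to 353 for time by tissue, 0 to 1937 and 0 to 0 for time within the organs, 5859 to 6283 and 5356 to 6086 in Deficient mice, and 1799 to 2929 and 1673 to 2580 for treatment by tissue. List medians moved without the 3 libraries, among other lists, for LH-induced genes (0.17), steroid receptors (0.27) and lymphocytes (-1.73). Without 4 they moved, among other lists, for LH-induced genes (0.10), transcription factors (0.85), cholesterol (1.12), matrix (-0.009), oviduct (6.57), macrophages (-1.88), neutrophils (-2.01), endothelium (-0.27) and oestrogen-induced genes (-2.67). The median also changed sign for transcription factors without the 3 (-0.087 to 0.5), and for cell cycle (-0.79 to 0.553) and WNT genes (0.117 to -0.054) without 4. Without 4, the median went from -0.14 to -0.852 for HOX, from -1.196 to -2.36 for uterine epithelium and from 4.40 to 7.70 for oocyte genes. Foxl2 turned to 0.029 without mitochondrial genes in the totals, 0.42 without a time term, 1.36 at ZT05 only, 1.14 and 1.88 without 3 and 4 libraries, and ran from -0.773 to 0.323 when 1 library was left out (above 0 in 4 fits: 0.073, 0.263, 0.323 and 0.251). Esr1 turned to 0.16 at ZT17 only and 0.075 without ovary-labelled ZT05 replicate 2 (range over single libraries -0.506 to 0.075), Akr1c18 to -2.17 at ZT17 only, and Ptgs2 to 0.038 without uterus ZT17 replicate 1 (range -1.843 to 0.038). The cause was not tested. With the mouse as a replicate block, 4698 and 3802 genes were called, and 163 of 181 named genes kept their side of the threshold. Calls were lost by 19 of 181 named genes without 3 libraries, 45 of 180 without 4, 43 of 164 with ZT05 libraries only and 29 of 161 with ZT17 libraries only, and by 4 to 23 of 181 when 1 library was left out. The 18 that lost it with the block include Nr5a2 (adjusted p = 0.224), Mro (0.0817), Has2 (0.0618), Fkbp5 (0.0817), Il1b (0.0756) and Crabp1 (0.0607), beside those given above. The p-values measure the spread between these 6 libraries of each label, of which 3 ovary-labelled ones had Cyp11a1 within the uterine range, so the steroidogenic differences rest on the other 3.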
